A study of Mus musculus with 4 samples.

Results

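The genes described here are 8 genes of 55341 counted in mouse cerebellum that are best known from striated muscle: Sln, Atp2a1, Atp2a2, Ryr1, Speg, Tnnc1, Tnnc2 and Mybpc1. They were chosen by name, with the readout in view, because Mybpc1, Sln and Tnnc2 were lower in the conditional Kdm6b knockout, and the other 5 are partners or relatives of those 3. Their knockout against WT values are therefore given as a description with no test. RNA-seq was made from cerebellar tissue at postnatal day 14, with 2 libraries per genotype. WT animals were Kdm6b fl/fl without Cre, and Kdm6b-cKO (cKO) animals were Atoh1-Cre; Kdm6b fl/fl littermates, so both genotypes carry the floxed alleles. Atoh1-Cre acts in granule neuron precursors and their progeny, while the tissue also holds Purkinje cells, interneurons, glia and vessels of other lineages. The product of Kdm6b takes methyl groups off histone H3 lysine 27, and the floxed exons encode its catalytic domain.

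In a striated muscle fibre, calcium leaves the sarcoplasmic reticulum through ryanodine receptors, binds troponin C on the thin filament and so lets myosin pull on actin, and is then pumped back by the SERCA ATPases. Small membrane peptides such as sarcolipin restrain the pump, and myosin binding proteins tune the thick filament. Neurons have no sarcomere, but they use the same kinds of pumps and release channels in their endoplasmic reticulum, and Purkinje cells are known for dense calcium stores.

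The pump gene Atp2a2 was among the most abundant transcripts in every library, and Mybpc1, Speg and Ryr1 were also well counted. Sln, Tnnc2, Tnnc1 and Atp2a1 stood between 1 and 28 counts per library. In cKO, Sln was at 13.8%, Tnnc2 at 12.1% and Mybpc1 at 48.4% of the WT mean in CPM (counts per 1000000 library counts, scaled by TMM). Speg and Atp2a2 were lower by less, at 76.4% and 86.5%, whereas the genotypes overlapped for Ryr1, Atp2a1 and Tnnc1. Both cKO libraries were below both WT libraries for 5 of the 8 genes. Over the 16617 tested genes, 23.2% had that arrangement and 4.04% passed the test below in either direction; since the genes were chosen on this contrast, nothing is read from their count.

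Libraries held between 8811849 and 9892363 counts in genes. Over the whole gene, Kdm6b itself had 154 and 154 CPM in WT against 127 and 119 in cKO, and it was lower by edgeR's quasi-likelihood test (adjusted p = 0.0162). Some libraries stood apart in ways that genotype does not name. Choroid plexus markers summed to 698 CPM in cKO 1 against 36.6 to 43.4 CPM in the other 3 libraries, and Xist was at 4 counts in WT 1 against 12588 to 14272 in the rest, so sex and genotype were partly mixed. Each fold change below was also computed with each library left out. The samples are called biological replicates, and with 2 per group the SD and SE rest on very few animals.

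Muscle tissue was looked for with markers. The 15 skeletal muscle fibre markers summed to 70 and 64 counts in WT and 101 and 53 counts in cKO, and 10 of them had at most 10 counts in any library. Myoz1 and Pygm were at 0 in all 4 libraries, and Ckm, the creatine kinase of muscle, had at most 4 counts. Myogenic factors summed to between 12 and 14 counts, with 4 of 9 at 0. Of the 4 fibre markers that passed the filter on low counts, 0 were called in edgeR. Over WT 1, WT 2, cKO 1 and cKO 2, Myl1 had 9, 16, 33 and 3 counts. In the same order Acta1 had 17, 10, 16 and 16, Actn3 13, 13, 13 and 8, and Casq1 11, 12, 13 and 7. These counts were of similar size to those of Sln and Tnnc2 in WT, and the part of muscle RNA in the results was not tested. Heart muscle markers summed to 303 to 347 CPM, and most of that sum came from Mybpc3, which is described with its family below.

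**Figure D1:**
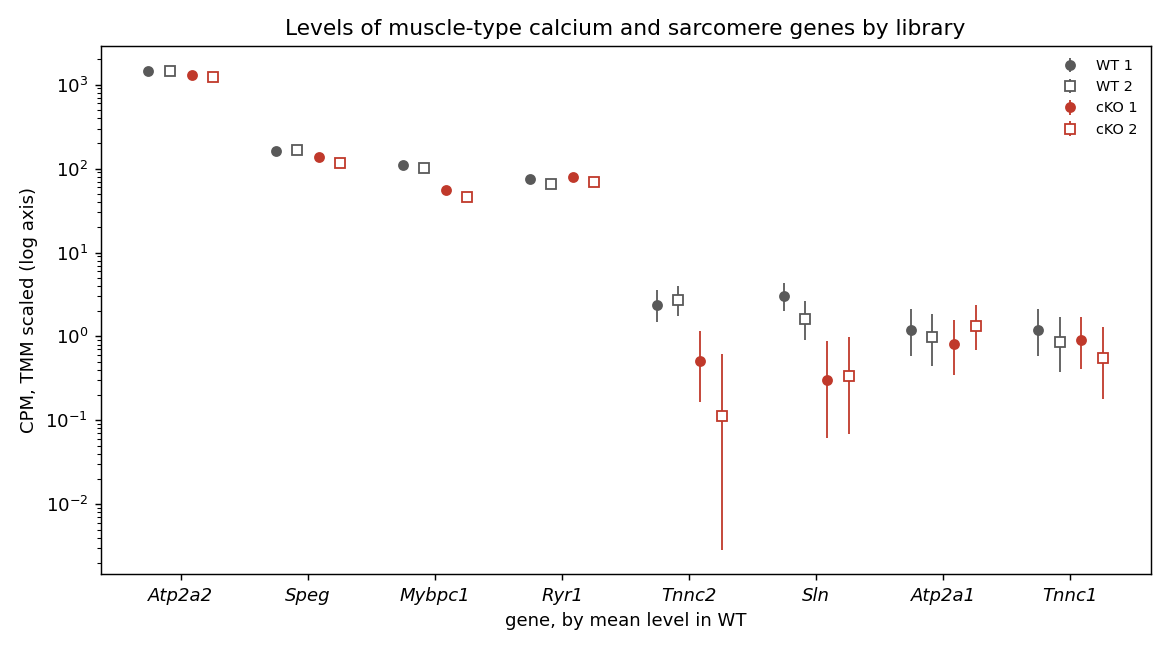
TMM-scaled CPM of the 8 genes in each library on a log axis, grey for WT and red for cKO, filled for replicate 1 and open for replicate 2, with bars showing exact 95% Poisson intervals of the count. Atp2a2 sits between 1225 and 1472 CPM, 3 genes sit between 46.4 and 168 CPM, and 4 sit at or below 3.02 CPM with wide counting intervals; Sln and Tnnc2 show the widest gap between the genotypes.

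The calcium pumps come first. Atp2a2 encodes SERCA2, the pump of heart and slow muscle and the common SERCA of neurons (ENSMUSG00000029467.15, chromosome 5, 122453513 to 122502225, GRCm38). The WT libraries held 1471 and 1472 CPM, the cKO libraries 1320 and 1225 CPM. The WT libraries agreed closely and both cKO libraries were lower, with means of 1472 ± 0.510 and 1273 ± 66.9 CPM (SD, n = 2 each) and a log2 fold change of −0.21 (SE 0.066). Atp2a1 encodes SERCA1, the pump of fast skeletal muscle (ENSMUSG00000030730.12, chromosome 7, 126445858 to 126463108). It had 11 and 9 counts in WT and 8 and 12 counts in cKO, so the groups overlapped. The log2 fold change of Atp2a1 was −0.02 (SE 0.56), and its sign changed with the library left out, from −0.41 without cKO 2 to 0.31 without cKO 1.

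Within the pump family, Atp2a2 took 82.5% and 83.2% of the counts of the 3 SERCA genes in WT and 83.1% and 83.9% in cKO, and 81.0% on average when counts were divided by exon length. Atp2a3, the third SERCA gene and one known from Purkinje cells, made up nearly all of the remainder. Its WT libraries held 312 and 297 CPM, its cKO libraries 268 and 234 CPM. Atp2a3 was not among the 8 chosen genes, and it fell by 0.28 on the log2 scale (SE 0.074, edgeR adjusted p = 0.0383). That call was lost with scaling by library size alone (adjusted p = 0.0527) and in DESeq2 (adjusted p = 0.0754). The coding sequences of Atp2a1 and Atp2a2 were 75.3% identical over aligned bases. Their whole transcripts held no shared run above 44 bases, which is shorter than the 150-base reads.

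Sln encodes sarcolipin, a small membrane peptide that binds SERCA and uncouples ATP use from calcium transport in muscle (ENSMUSG00000042045.6, chromosome 9, 53850164 to 53854560). Its whole coding sequence of 96 bases is shown because the gene codes for only 31 residues, so most of the 1318 exon bases that collect reads lie outside it. It was read from GENCODE M21 transcript Sln-201, with the start and stop codons in capitals.
Sln: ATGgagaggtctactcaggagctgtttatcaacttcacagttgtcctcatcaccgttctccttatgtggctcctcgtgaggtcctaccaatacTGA

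Sln had 28 and 15 counts in WT and 3 and 3 counts in cKO. Both cKO libraries were at the level of 3 counts that is taken here as the floor for detection, and the 2 WT libraries differed between themselves. In CPM the means were 2.32 ± 0.990 in WT and 0.319 ± 0.0238 in cKO (SD, n = 2 each), with a log2 fold change of −2.81 (SE 0.63). Summed over libraries and scaled to the TMM library sizes, the cKO to WT ratio was 0.137, with a counting interval of 0.0477 to 0.324 that covers counting error only. Without WT 1, the library with most Sln counts, the log2 fold change was −2.30. No gene in the annotation shares exon bases with Sln on either strand.

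Other small regulators of the pump were read beside Sln. Pln, which encodes phospholamban, the SERCA2 brake of heart muscle, had 3 and 4 counts in WT and 4 and 3 counts in cKO. Mrln, which encodes myoregulin of skeletal muscle, had 27 and 41 counts in WT and 35 and 37 in cKO (log2 fold change 0.06, SE 0.34, adjusted p = 0.962 in edgeR). In mean CPM per kilobase of exon, the level of Mrln was 3.11 ± 0.908 in WT and 3.25 ± 0.370 in cKO, that of Sln 1.76 ± 0.751 and 0.242 ± 0.0181, and that of Pln 0.137 ± 0.0278 and 0.134 ± 0.0172 (SD, n = 2 each). Mrln was thus the regulator with the highest mean in both genotypes, although the counts of all 3 were small.

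Calcium release was represented by Ryr1, the ryanodine receptor of skeletal muscle, which Purkinje cells are also known to express (ENSMUSG00000030592.18, chromosome 7, 29003344 to 29125179). The WT libraries held 74.5 and 65.8 CPM, the cKO libraries 78.6 and 68.9 CPM. The genotypes interleaved, with means of 70.1 ± 6.20 and 73.8 ± 6.88 CPM and a log2 fold change of 0.07 (SE 0.093) that ranged from −0.03 to 0.17 over the fits with 1 library left out. Ryr1 took 18.9%, 17.3%, 20.0% and 17.9% of the counts of the 3 ryanodine receptor genes, and 22.5% on average per exon length. Ryr2, the heart and brain receptor, was the leading one at 2777, 2721, 2964 and 2724 counts, and its log2 fold change was 0.03 (SE 0.067, adjusted p = 0.908 in edgeR). Ryr3, the least abundant receptor, had 20.6 and 21.5 CPM in WT against 16.5 and 11.4 in cKO, a log2 fold change of −0.58 (SE 0.17) that did not pass the threshold (edgeR adjusted p = 0.0605).

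Speg encodes a giant kinase of the myosin light chain kinase group that sits at calcium release sites in striated muscle (ENSMUSG00000026207.16, chromosome 1, 75375297 to 75432320). For Speg, the WT libraries held 163 and 168 CPM and the cKO libraries 136 and 117 CPM. Both cKO libraries were lower, with means of 166 ± 4.02 and 126 ± 13.9 CPM and a log2 fold change of −0.39 (SE 0.082). The cKO libraries differed from each other by more than the WT libraries did, and the log2 fold change was −0.50 without cKO 1 and −0.28 without cKO 2.

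The calcium sensors of the thin filament are the 2 troponin C genes. Tnnc2 encodes the fast skeletal form (ENSMUSG00000017300.9, chromosome 2, 164777161 to 164779967, minus strand), and Tnnc1 the form of slow muscle and heart (ENSMUSG00000091898.8, chromosome 14, 31208312 to 31211729, plus strand). The first 120 coding bases of each are shown to let the likeness of the pair be judged, since reads can be assigned to 1 of them only where they differ. They come from GENCODE M21, and capitals mark bases that are identical in a global alignment of the full coding sequences.
Tnnc1: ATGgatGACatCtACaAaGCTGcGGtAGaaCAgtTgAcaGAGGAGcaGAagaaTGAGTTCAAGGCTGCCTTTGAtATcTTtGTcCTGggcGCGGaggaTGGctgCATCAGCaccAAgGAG
Tnnc2: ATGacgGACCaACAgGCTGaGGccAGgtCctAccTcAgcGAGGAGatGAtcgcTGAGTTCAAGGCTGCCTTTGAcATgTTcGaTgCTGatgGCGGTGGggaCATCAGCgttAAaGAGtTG
Over the full coding sequences the pair was 70.4% identical. Over their whole transcripts, the longest run of bases shared without a break was 21, far below the read length.

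Tnnc2 had 22 and 25 counts in WT and 5 and 1 counts in cKO. The WT libraries were alike and both cKO libraries were lower, at 2.54 ± 0.231 and 0.308 ± 0.277 CPM (SD, n = 2 each) and a log2 fold change of −2.95 (SE 0.62). The ratio of summed, scaled counts was 0.126 with a counting interval of 0.0439 to 0.294. The size of the change depended on the cKO library used, with a log2 fold change of −4.34 without cKO 1 and −2.30 without cKO 2. Tnnc1 had 11 and 8 counts in WT and 9 and 5 counts in cKO, so the groups overlapped, and it was the 1 gene of the 8 that the filter on low counts removed before the fit. Sln and Tnnc2 passed that filter through their WT libraries only. Tnnc1 accordingly made up 33.3% and 24.2% of the troponin C counts in WT and 64.3% and 83.3% in cKO, with exact 95% intervals from 17.96% to 51.8%, 11.1% to 42.3%, 35.1% to 87.2% and 35.9% to 99.6%. Divided by exon length, the same shares were 27.8% and 19.7% in WT and 58.0% and 79.3% in cKO.

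**Figure D2:**
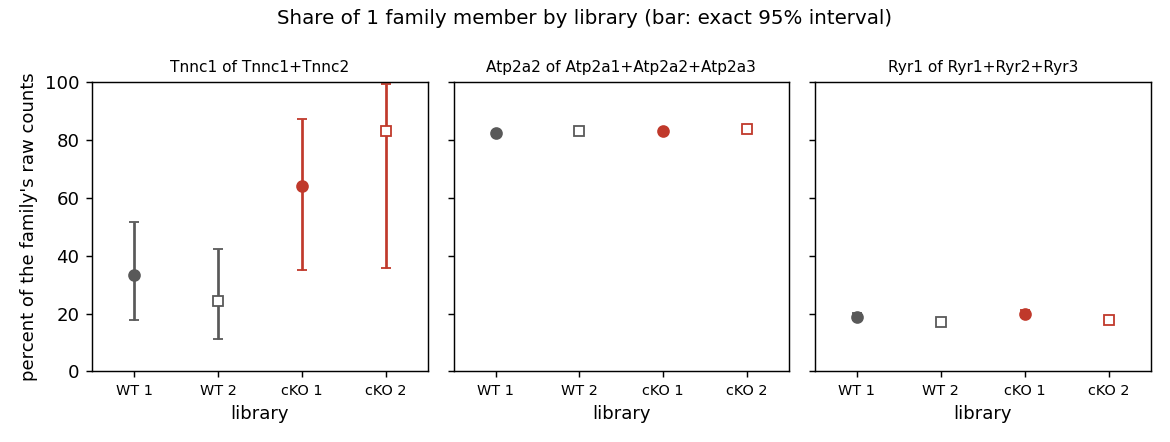
Percent of a family's raw counts taken by Tnnc1 (left), Atp2a2 (middle) and Ryr1 (right) in each library, with exact 95% binomial intervals as bars. The Atp2a2 share stays between 82.5% and 83.9% and the Ryr1 share between 17.3% and 20.0%, while the Tnnc1 share is 24.2% and 33.3% in WT and 64.3% and 83.3% in cKO on 33, 33, 14 and 6 counts.

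The Tnnc2 counts carry a limit of the annotation. Of the 800 exon bases of Tnnc2, 592 (74.0%) also lie in an exon of Ube2c on the opposite strand, including 477 of 480 coding bases counted without the stop codon. Ube2c encodes a ubiquitin conjugating enzyme of mitosis, and 1 of its 2 annotated transcripts, Ube2c-201, holds that exon. In these counts, reads of opposite strands do not appear to be separated. This was read from 124 short genes that lay at least 95% inside exons of a well counted gene on the other strand. Of these, 122 had counts. Over the 124, the median ratio of counts per base to the well counted gene was 1.88, with quartiles of 0.765 and 3.11. Reads of Tnnc2 and Ube2c therefore cannot be told apart over the shared bases. Ube2c had 37 and 59 counts in WT and 33 and 67 in cKO, a log2 fold change of 0.05 (SE 0.34, adjusted p = 0.968 in edgeR). That total covers all Ube2c exon bases, of which 22.8% are shared with Tnnc2, so it cannot show the source of reads over the shared bases. How many of the Tnnc2 counts belong to Ube2c was not tested.

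**Figure D3:**
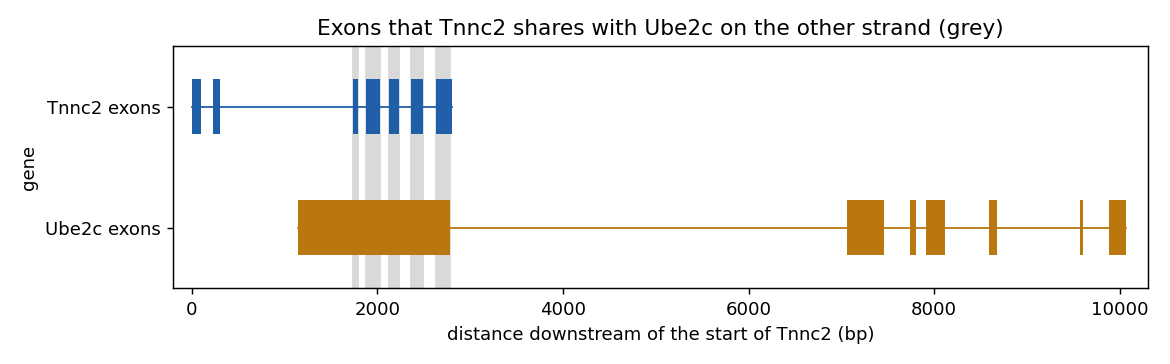
Exons of Tnnc2 (blue) and Ube2c (brown, opposite strand) against the distance downstream of the Tnnc2 start in base pairs, with shared exon bases in grey. The 1633-base last exon of Ube2c covers the last 5 of the 7 Tnnc2 exons, all or in part, and leaves 208 Tnnc2 exon bases unshared.

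The thick filament was represented by Mybpc1, which encodes the slow form of myosin binding protein C (ENSMUSG00000020061.17, chromosome 10, 88518279 to 88605152, minus strand). It had 1017 and 935 counts in WT and 552 and 414 counts in cKO, which puts it far above the counting limits of Sln and Tnnc2. The groups were well apart, with means of 105 ± 6.18 in WT against 51.0 ± 6.55 CPM for cKO (SD, n = 2 each), and the log2 fold change was −1.04 (SE 0.094), ranging from −1.18 without cKO 1 to −0.92 without cKO 2. Near its start, 252 of its 4527 exon bases (5.57%) overlap Gm48752, an unnamed gene on the other strand. Gm48752 had 4.96 and 5.18 CPM in WT against 2.92 and 2.46 in cKO, a log2 fold change of −0.91 (SE 0.32) that did not pass the threshold (edgeR adjusted p = 0.136). Over the shared bases, reads of Gm48752 and of the far more abundant Mybpc1 cannot be told apart. How many of the Gm48752 counts belong to Mybpc1 was not tested, so its values do not stand as those of a separate gene.

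The relatives of Mybpc1 had other values. Mybpc3, the heart form, was the most abundant of the sarcomere scaffold list per exon length, at 2666 and 2698 counts in WT and 3040 and 2409 in cKO, and the log2 fold change was −0.01 (SE 0.073, adjusted p = 0.983 in edgeR). Mybpc2, the fast form, had 13, 24, 19 and 17 counts and a log2 fold change of −0.06 (SE 0.45, adjusted p = 0.969). Mybph had 55.1 and 50.1 CPM in WT against 48.9 and 41.0 in cKO (log2 fold change −0.22, SE 0.11, adjusted p = 0.311), but 49.9% of its exon bases overlap Adora1 on the other strand. The differences between Mybpc1 and these relatives were not tested.

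**Figure D4:**
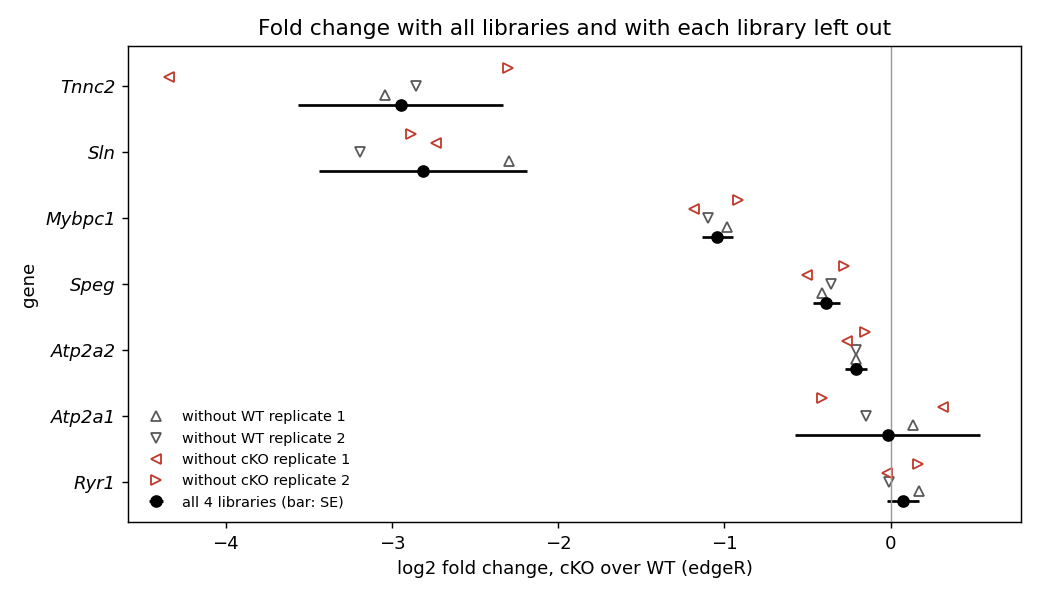
Log2 fold change of cKO over WT for the 7 fitted genes, black with SE bars for all 4 libraries and open symbols with 1 library left out. Mybpc1, Sln, Tnnc2, Speg and Atp2a2 stay below 0 in every fit, Tnnc2 spreads from −4.34 to −2.30, and the symbols of Atp2a1 and Ryr1 fall on both sides of 0.

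Levels between genes were compared as mean CPM per kilobase of exon over the 4 libraries. Atp2a2 led at 226, followed by Mybpc1 at 17.3, Speg at 11.5, Ryr1 at 3.29, Tnnc2 at 1.78, Sln at 1.001, Tnnc1 at 0.845 and Atp2a1 at 0.310. Among tested genes Atp2a2 was at percentile 99.5, Mybpc1 at 80.2, Speg at 69.7, Ryr1 at 34.7, Tnnc2 at 21.9, Sln at 13.3 and Atp2a1 at 2.19. The ranges over libraries of Atp2a2 and Mybpc1, of Speg and Ryr1, and of Tnnc1 and Atp2a1 did not overlap, while the other neighbours in this order did. Mybpc1 in WT, at 23.3 ± 1.36 CPM per kilobase, was above Speg at 13.0 ± 0.315, whereas in cKO they were at 11.3 ± 1.45 and 9.92 ± 1.09. The order of the 4 lowest genes also differed between the genotypes. In WT they were Tnnc2 at 3.17 ± 0.289, Sln at 1.76 ± 0.751, Tnnc1 at 0.985 ± 0.219 and Atp2a1 at 0.310 ± 0.0437, and in cKO Tnnc1 at 0.705 ± 0.236, Tnnc2 at 0.385 ± 0.346, Atp2a1 at 0.309 ± 0.109 and Sln at 0.242 ± 0.0181 (CPM per kilobase, SD, n = 2 each). In Atp2a1, 763 of 3477 exon bases (21.9%) overlap Rabep2 on the other strand, which had 112 to 143 counts per library, so its low level is an uncertain one.

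The other genes of the pathway were read as 5 lists of 127 genes in all, with the 8 genes left out. The files hold 125 of them, and 80 passed the filter on low counts. Of these 80, 0 were higher and 1 was lower in cKO (edgeR, adjusted p under 0.05), where the background over all tested genes was 1.87% higher, 2.17% lower and 4.04% in either direction. At an unadjusted p under 0.05 there were 13 of 80, beside 16.3% of all tested genes. DESeq2 called 0 of the 80 and 1.93% of all tested genes, and limma-voom called 1 and 3.90%. The median log2 fold change over the 80 was −0.04, beside 0.0036 over all 16617.

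Troponins and tropomyosins had 5 of 11 genes tested, with 0 called and a median log2 fold change of 0.10. Tpm1, a widely used tropomyosin, had the smallest p of the list and stood at 147 and 157 CPM in WT against 174 and 172 CPM in cKO (log2 fold change 0.19, SE 0.074, adjusted p = 0.190). The fast troponin partners of Tnnc2 were at or near the floor. Tnni2 had 1 count in WT 2 and 0 in the other libraries, and Tnnt3 had 1, 1, 7 and 5 counts. The list named sarcomeric myosins had 7 of 17 tested and 0 called, with a median of −0.18. That list also holds Myh14, a nonmuscle myosin, and the median is the value of Myh14 itself. Its 112 and 124 CPM in WT made up most of the summed CPM of the list, so neither figure describes sarcomeric myosins alone. The smallest p was that of Myh7b, a slow-type myosin heavy chain (log2 fold change 0.36, SE 0.18, adjusted p = 0.336). Neither list thus held a gene past the threshold.

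Sarcomere scaffold and kinase genes had 18 of 40 tested and 0 called, with a median of −0.11. Tmod1, which caps the pointed end of actin filaments, had the smallest p with 105 and 92.9 CPM in WT against 85.3 and 77.0 in cKO (log2 fold change −0.28, SE 0.087, adjusted p = 0.0723), and 32.6% of its exon bases overlap Tstd2 on the other strand. Genes of calcium release and ER junctions had 31 of 36 tested and 0 called, with a median of −0.03, and Ryr3 had the smallest p. Calcium pumps, exchangers and their regulators had 19 of 23 tested, with 0 higher, 1 lower (Atp2a3) and a median of −0.06.

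**Figure D5:**
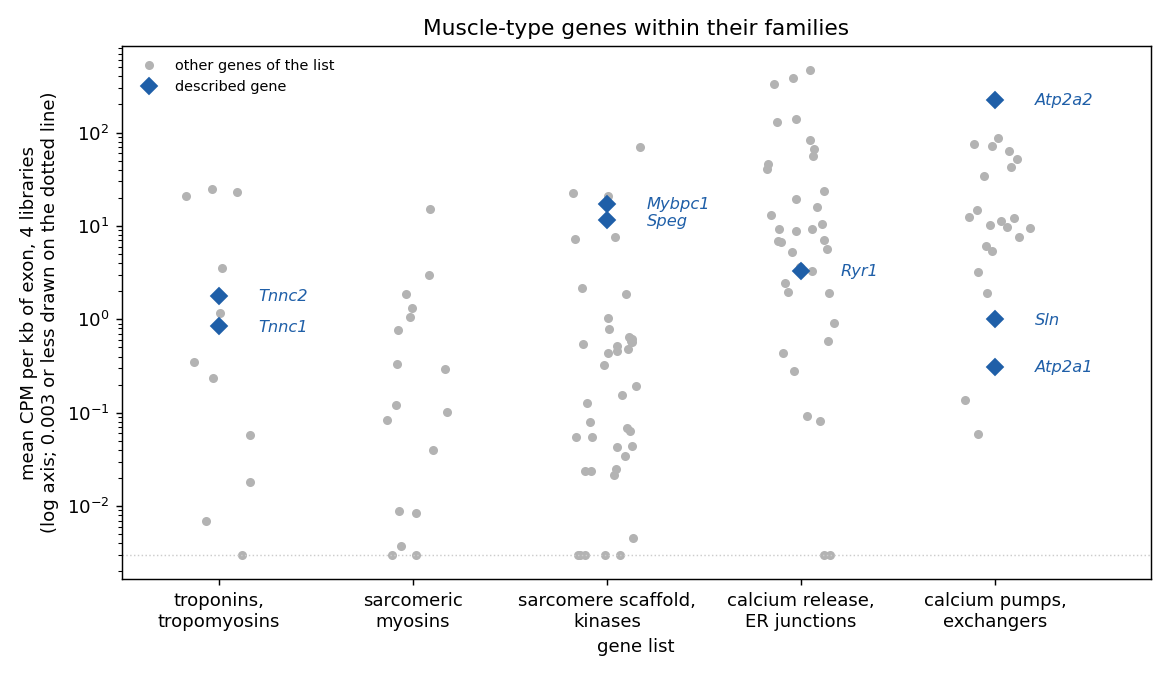
Mean CPM per kilobase of exon over the 4 libraries on a log axis for each gene of the 5 lists (grey) and for the 8 genes described here (blue), placed in the list each belongs to, with values at or below 0.003 drawn on the dotted line. Atp2a2 is the highest pump gene at 226, Mybpc1 and Speg lie in the upper part of the scaffold list, and Sln, Tnnc1, Tnnc2 and Atp2a1 lie between 0.310 and 1.78.

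Several cell type markers also differed between the genotypes, and the counts of markers called below are to be read beside 4.04% of all tested genes in either direction. Mature granule neuron markers summed to 7728 and 7973 CPM in WT and 7078 and 6423 CPM in cKO, with 0 higher and 6 lower of 12. Purkinje cell markers summed to 7330 and 7294 CPM in WT and 6787 and 6424 CPM in cKO, with 1 higher and 1 lower of 13, and inhibitory interneuron markers to 2111 and 2155 against 1945 and 1873 CPM with 0 called of 12. Bergmann glia and astrocyte markers summed to 4764 and 4746 CPM in WT and 4299 and 4212 CPM in cKO, with 1 higher and 3 lower of 10. In these 4 sums both cKO libraries were below both WT libraries. Gene by gene, that order held for 9 of 12 granule neuron and 7 of 13 Purkinje cell markers. It also held for 8 of 12 interneuron and 5 of 10 glial markers. The reverse order held for 1, 3, 0 and 3 of them. Over all tested genes, each order held for 23.2%. The sums lean on the most abundant markers. In the Purkinje cell sum, Itpr1 alone was at 2600 and 2501 CPM in WT and 2400 and 2113 CPM in cKO. Gabra6, the granule neuron GABA-A receptor subunit gene, was at 73.7% of its WT mean in cKO. In bulk tissue, fewer cells of a type and less RNA per cell cannot be told apart, and the part of these markers in the results was not tested. Markers of meningeal fibroblasts summed to 223 to 265 CPM with 0 called of 8, and those of smooth muscle and mural cells to 252 to 269 CPM with 1 higher of 10 tested, namely Acta2. Midbrain and brainstem markers summed to 72.7 and 62.2 CPM in WT and 50.1 and 59.6 CPM in cKO. En1 and Th were lower among 4 tested, while the other 2 were not called and had both cKO libraries above both WT libraries. Choroid plexus markers had 3 higher of 6 tested. Their sum was 698 CPM in cKO 1 but 43.4 in cKO 2, near the 36.6 and 38.3 of WT.

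Position on the chromosome was read through the nearest tested gene on each side of each gene, 16 neighbours in all. Ube2c, Gm48752, Gm44408, Gm26604, Rabep2, Gm43359 and Nisch overlap the gene they were set beside, so they do not flank it. Some of them also share exon bases with it, where reads cannot be told apart. Of all 16, 0 were higher and 1 was lower (edgeR, adjusted p under 0.05), beside 1.87% and 2.17% of all tested genes. The lower one was Elmod1, which lies 56897 bases beyond Sln and encodes a GTPase activating protein, with 125 and 126 CPM in WT against 101 and 102 in cKO (log2 fold change −0.31, SE 0.077, adjusted p = 0.0241). On the other side of Sln, Slc35f2 had a log2 fold change of −0.12 (SE 0.28, adjusted p = 0.889). Snx21 beside Tnnc2 was at −0.29 (SE 0.099, adjusted p = 0.114) and Chpt1 beside Mybpc1 at 0.01 (SE 0.084, adjusted p = 0.967), and the largest estimate among the 16 was −1.21 for Gm43359 inside the Atp2a2 locus (SE 0.61, adjusted p = 0.340). The call of Elmod1 was lost in DESeq2 (log2 fold change −0.31) and with any 1 library left out (−0.32 to −0.30), while its fold change hardly moved.

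Promoter sequence is shown for Tnnc2 and Mybpc1, the genes of the lower 3 that the RefSeq table of GRCm38.p6 holds, to set side by side the starts of genes that were lower together. Each run spans 250 bases before to 50 bases after the RefSeq start on the minus strand. The windows are chr2:164779685-164779984 for Tnnc2 and chr10:88605103-88605402 for Mybpc1. For Mybpc1 this start is also the GENCODE start. For Tnnc2 it lies inside the gene, downstream of the GENCODE start at 164779967 that is used above. Most of the Tnnc2 window, with the first GENCODE exon and both marked E-boxes, therefore lies within the annotated gene. Capitals mark each E-box, CANNTG, the motif of myogenic and proneural factors.
Tnnc2: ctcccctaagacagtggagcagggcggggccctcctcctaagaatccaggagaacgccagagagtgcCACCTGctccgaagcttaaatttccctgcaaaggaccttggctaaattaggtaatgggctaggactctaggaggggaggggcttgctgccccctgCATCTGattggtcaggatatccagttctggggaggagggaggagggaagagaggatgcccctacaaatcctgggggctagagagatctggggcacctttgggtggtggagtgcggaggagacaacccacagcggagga
Mybpc1: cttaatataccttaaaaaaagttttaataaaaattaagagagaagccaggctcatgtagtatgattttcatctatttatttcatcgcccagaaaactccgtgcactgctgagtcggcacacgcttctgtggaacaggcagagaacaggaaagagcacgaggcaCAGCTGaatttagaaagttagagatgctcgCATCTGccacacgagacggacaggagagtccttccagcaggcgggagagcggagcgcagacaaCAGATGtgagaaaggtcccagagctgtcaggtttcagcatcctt
Tnnc2 held 2 E-boxes and Mybpc1 held 3 on either strand, but 72.3% of the 32851 promoters of this length in the table hold at least 1. Tnnc2 also had 1 GC box, GGGCGG, a motif in 35.7% of promoters, and Mybpc1 had 0. Neither held a MEF2 motif, a CArG box or TAATTA, which 3.19%, 1.63% and 5.29% of promoters hold. The windows were 58.3% and 46.7% G or C. The 6 of the 8 genes with an entry had 9 promoters between them, and a MEF2 match stood in 1 of these, the first promoter of Speg.

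The genes with a profile most like Sln, Tnnc2 and Mybpc1 were found by the distance between log2 CPM values centred on each gene's mean over the 4 libraries, among 16464 genes. Nearest to Sln were Impg1 (distance 0.530), Hrh1 (0.819) and Lrtm1 (0.826), with 22, 13, 3 and 4 counts for Impg1. Nearest to Tnnc2 were Gm29438 (1.25), Asb18 (1.34) and Gm43751 (1.34), with 48, 47, 14 and 8 counts for Gm29438. Nearest to Mybpc1 were Abi3 (0.0430), Fhit (0.0874) and Mapk12 (0.104), a stress kinase gene with high expression in skeletal muscle with 24.7 and 22.03 CPM in WT against 13.3 and 10.9 in cKO. Abi3 had 37.8 and 35.7 CPM in WT against 19.8 and 16.6 in cKO, and 70.1% of its exon bases overlap Zfp652 on the other strand. The distances rest on 4 libraries, and those of the low-count genes carry counting error.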

How the data were processed

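RNA-seq libraries of 2 WT and 2 cKO cerebella were used. The authors deposited raw counts per gene, 1 table per library. By their methods and processing notes, reads were trimmed with Trimmomatic 0.38, aligned with STAR 2.7.2b to mm10 and counted over exons with HTSeq and a Gencode annotation. Their strand setting is not given in the sources used here, and the 5 closing entries that name no gene held 59.5% to 61.0% of each table's counts and were left out. All 55341 genes matched GENCODE M21, which gave positions, exon lengths and overlaps.

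Counts were fitted with edgeR 4.0.16 (filterByExpr with a smallest count of 10, TMM, glmQLFit, glmQLFTest, two-sided, Benjamini-Hochberg adjustment over 16617 genes, threshold 0.05), after the code was tested on simulated data. CPM are counts per 1000000 TMM-scaled library counts. Intervals are exact Poisson or Clopper-Pearson at 95%, ratios of summed counts have an exact conditional interval, and all cover counting error only. Fold changes with SE are from edgeR. The 8 genes, the pathway and marker lists and the tests were chosen with earlier results of these data known. Named genes were the 8, per list up to 3 past the threshold or otherwise the 1 with the smallest p, the nearest tested gene on each side, and the 3 tested genes with mean CPM of at least 1 that were most alike. Relatives in the 8 genes' families, marker genes and opposite-strand partners were also given, and some of these were chosen after their values were seen. Alternatives were RLE scaling, library size alone, other filters, DESeq2 1.42.0, limma-voom (limma 3.58.1), a replicate block and leaving out each library. Coding sequences were aligned with Biopython 1.88. Replicate numbers were not treated as pairs. The result of 1 listed gene is not reported here.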

Additional observations from a re-analysis of the deposited data

How the results depend on the processing

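The number of genes past the threshold was 671 of 16617, and it was 177 of 28952 with no filter on low counts, 320 with DESeq2, and between 0 and 507 with 1 library left out. It was 368 without WT 1, and without cKO 1 and without cKO 2 it was 0 in edgeR (an unadjusted p under 0.05 was reached by 2315 and 1718 genes), so a call lost there says little of any 1 gene. Scaling by library size alone called 726 genes, of which 40.2% were lower in cKO against 53.8% with TMM. With the replicate number as a block, 1130 genes were called, and 6 genes of the pathway lists in place of 1, all lower: Atp2a3, Ryr3 (log2 fold change −0.60), Tmod1 (−0.28), Myom1, Stac2 and Asph. Same-numbered libraries did not deviate together (correlation 0.046 over 16471 genes), so the numbers were not taken as pairs.

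The 1 call in the pathway lists, Atp2a3, became 0 with library size alone, no filter and DESeq2, and 0 to 1 with 1 library left out; in the fit without WT 2 that 1 call was Myom1, not Atp2a3. The 1 call among neighbours, Elmod1, became 0 with no filter, with DESeq2 and in each fit with 1 library left out. With 1 library left out, log2 fold changes ranged from −3.19 to −2.30 for Sln, −4.34 to −2.30 for Tnnc2, −1.18 to −0.92 for Mybpc1, −0.50 to −0.28 for Speg, −0.26 to −0.15 for Atp2a2, −0.03 to 0.17 for Ryr1 and −0.41 to 0.31 for Atp2a1. The share of Atp2a2 in its family was 83.1% by counts and 81.0% per exon length, and that of Ryr1 was 18.5% and 22.5%. At 1 to 28 counts per library, depth limits what can be said of Sln, Tnnc2, Tnnc1 and Atp2a1. The lone library of a genotype in such a fit is assumed to vary like the others.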

Other observations

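Further muscle genes are given by their values; they were picked after their values were seen and have no independent standing. Cacna1s, the voltage sensor that opens Ryr1 in skeletal muscle, had 8 and 8 counts in WT and 2 and 2 counts in cKO and was not tested because of the filter on low counts. Myom1, the gene of the M-band protein myomesin, had 87 and 59 counts in WT and 51 and 27 in cKO (log2 fold change −0.93, SE 0.30, adjusted p = 0.0844 in edgeR). Others went the other way. Mylpf had 0 and 1 counts in WT and 5 and 7 in cKO and was not tested. Smyd1 had 14 and 16 counts in WT and 28 and 21 in cKO (log2 fold change 0.68, SE 0.42, adjusted p = 0.466 in edgeR). Over the 80 tested genes of the pathway lists, 34 estimates were above 0 and 46 below, beside 8432 and 8185 of all 16617.

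Values of some genes of calcium stores in neurons, also picked after they were seen, are added. Itpr1, the inositol trisphosphate receptor of Purkinje cells, was at 2600 and 2501 CPM in WT and 2400 and 2113 CPM in cKO (log2 fold change −0.18, SE 0.067, edgeR adjusted p = 0.170). Casq2, a calcium-binding store protein of heart and of Purkinje cells, had 236 and 245 counts in WT and 274 and 205 in cKO, so its groups overlapped (log2 fold change −0.03, SE 0.14, edgeR adjusted p = 0.940). Jph3, a neuronal junctophilin that holds the endoplasmic reticulum near the cell membrane, was at 211 and 224 CPM in WT and 203 and 177 CPM in cKO (log2 fold change −0.20, SE 0.077, edgeR adjusted p = 0.187). Jph4, another junctophilin, was higher in both cKO libraries, at 379 and 378 CPM in WT and 437 and 384 CPM in cKO (log2 fold change 0.12, SE 0.073, edgeR adjusted p = 0.475). In the list that holds these genes, 14 estimates were above 0 and 17 below.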
